A study of Mus musculus with 8 samples.

Results

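The 10 genes described here belong to prostaglandin metabolism and reception, and were measured by bulk RNA-seq of mouse small intestinal crypts and villi. They are Pla2g4a, Ptgs1, Ptges, Ptges2 and Ptges3 for synthesis, Slco2a1 for uptake, Hpgd and Ptgr1 for breakdown, and the PGE2 receptor genes Ptger3 and Ptger4. They were taken by symbol from a fixed list of 10, and every one of them was in at least 1 of the deposited tables, which together name 13028 genes. The crypt table held 9 of them among 11554 genes and lacked Ptges. The villus table held 9 among 12701 genes and lacked Ptger3. The tables shared 8 of them among 11227 genes. The lowest mean was 48.4 normalized counts in the crypt table and 8.73 in the villus table, so a gene that is not listed may still be transcribed at a low level.

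All mice were C57BL/6 and were given tamoxifen 1 month before sampling, and no age was given. In Gli1-PtgscKO mice (Gli1-CreERT2; Ptgs1 flox/flox; Ptgs2 flox/flox), Cre deletes Ptgs1 and Ptgs2 (which encode COX1 and COX2) in Gli1+ mesenchymal cells. Ctrl mice carry the genotype label WT. The extraction notes describe them as Gli1-CreERT2; Rosa26-tdTomato, while the study's text describes floxed mice that lack Cre, so which alleles the Ctrl mice shared with Gli1-PtgscKO mice is uncertain. Crypts were represented by 2 libraries per group and villi by 1 Ctrl and 2 Gli1-PtgscKO libraries, because both deposited columns of Ctrl villi hold the same values throughout and stand for 1 sample.

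Prostaglandin synthesis starts when cytosolic phospholipase A2, encoded by Pla2g4a, frees arachidonic acid from membrane lipids. The cyclooxygenases turn it into PGH2, which PGE synthases convert to PGE2. PGE2 leaves the cell and acts on EP receptors. EP4 (Ptger4) couples to Gs and raises cAMP, while EP3 (Ptger3) mainly couples to Gi and lowers it. The carrier encoded by Slco2a1 takes PGE2 back up, 15-hydroxyprostaglandin dehydrogenase (Hpgd) oxidizes it, and prostaglandin reductase 1 (Ptgr1) reduces the product. In the gut wall, mesenchymal cells are a known source of PGE2, and the epithelium both receives it and breaks it down.

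The libraries held 16853017 to 21121714 reads on listed genes in crypts and 13477600 to 15751024 in villi. Crypt libraries carried 105534 to 117154 summed normalized counts of 8 stem cell markers, against 3084 to 5812 in villi. The sum of 10 enterocyte markers was 107297 to 155860 in crypts and 395222 to 575026 in villi. Both preparations also held mesenchymal RNA, with 8 of 12 markers listed, none of those at 0, and Gli1, Twist2 and Foxl1 listed in neither table. Gli1-PtgscKO crypt replicate 1 stood apart. Set against the mean of the remaining 3 libraries, its log2 values had a Spearman correlation of -0.67 with transcript length across genes, and those of the others had 0.24 to 0.57. In villi the difference of each Gli1-PtgscKO library from Ctrl correlated with length at 0.54 and 0.51. These are descriptions across genes, which are not independent replicates. For this reason each member is also given after a length correction. Length here is that of the longest annotated transcript, which need not be the one expressed. A smooth curve of log2 value on transcript length was fitted to every library. The deviation of that curve from the mean curve of the libraries was subtracted.

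The RefSeq sequences upstream of the transcription start are shown for 3 members. Hpgd and Pla2g4a had the largest differences between crypts and villi in opposite directions, and Ptger4 encodes the receptor that the study follows. Each run holds the 250 bases before the start on the gene's own strand in GRCm38.p6, and capitals mark a GC box (GGGCGG, or CCGCCC on the other strand). The windows are chr8:56294302-56294551 (plus strand) for Hpgd, chr1:149961291-149961540 (minus strand) for Pla2g4a and chr15:5244188-5244437 (minus strand) for Ptger4.
Hpgd: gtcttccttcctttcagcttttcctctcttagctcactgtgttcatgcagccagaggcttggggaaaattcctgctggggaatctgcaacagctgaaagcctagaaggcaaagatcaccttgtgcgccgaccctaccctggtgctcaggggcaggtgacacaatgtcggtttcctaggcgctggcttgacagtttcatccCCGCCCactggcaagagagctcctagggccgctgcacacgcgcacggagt
Pla2g4a: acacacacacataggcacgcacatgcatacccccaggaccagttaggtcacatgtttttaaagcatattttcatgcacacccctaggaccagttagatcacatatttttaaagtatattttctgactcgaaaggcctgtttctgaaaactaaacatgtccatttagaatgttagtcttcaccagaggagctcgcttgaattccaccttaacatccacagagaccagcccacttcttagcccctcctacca
Ptger4: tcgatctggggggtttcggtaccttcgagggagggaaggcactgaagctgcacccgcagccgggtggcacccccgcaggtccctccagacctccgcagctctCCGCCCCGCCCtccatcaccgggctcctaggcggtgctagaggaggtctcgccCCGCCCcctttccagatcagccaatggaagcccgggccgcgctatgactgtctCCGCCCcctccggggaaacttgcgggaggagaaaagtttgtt

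The Ptger4 window held 4 GC boxes, of which 2 overlap by a base, the Hpgd window held 1 and the Pla2g4a window none. GC content was 66.8% for Ptger4, 56.8% for Hpgd and 43.2% for Pla2g4a. Among 32851 RefSeq upstream windows of the same length, 32.7% held a GC box. The cAMP response element half-site, searched as TGACG on both strands, was in 17.8% of all windows and in none of the 10 members' windows. The TATA box, which was searched on both strands by the letters TATAAA, was in 12.4% of all windows and, among the members, in Slco2a1 alone. These matches are descriptions of the letters and say nothing about binding.

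The first comparison asked whether loss of COX1 and COX2 in Gli1+ mesenchyme went with other levels of prostaglandin gene RNA in crypts. None of the 9 listed members passed the test. By limma-trend with Benjamini-Hochberg adjustment over all 11554 genes, every member had an adjusted p of 1.00, and 0 of 9 were at an unadjusted p under 0.05, where 73 genes in all, or 0.632%, were. At the study's threshold (unadjusted p under 0.01 and a log2 fold change over 1 in size) 0 of 9 members were called, against 0.173% of all genes as higher and 0.00866% as lower. No gene of the table reached an adjusted p under 0.05 (0%). By edgeR that count was also 0, with 108 genes at an unadjusted p under 0.05, and by DESeq2 it was 11, with 227. With 2 libraries against 2, the smallest two-sided p of an exact permutation test is 0.333. The median log2 fold change (Gli1-PtgscKO over Ctrl) was 0.13 over the 9 members and -0.01 over all genes.

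**Figure D1:**
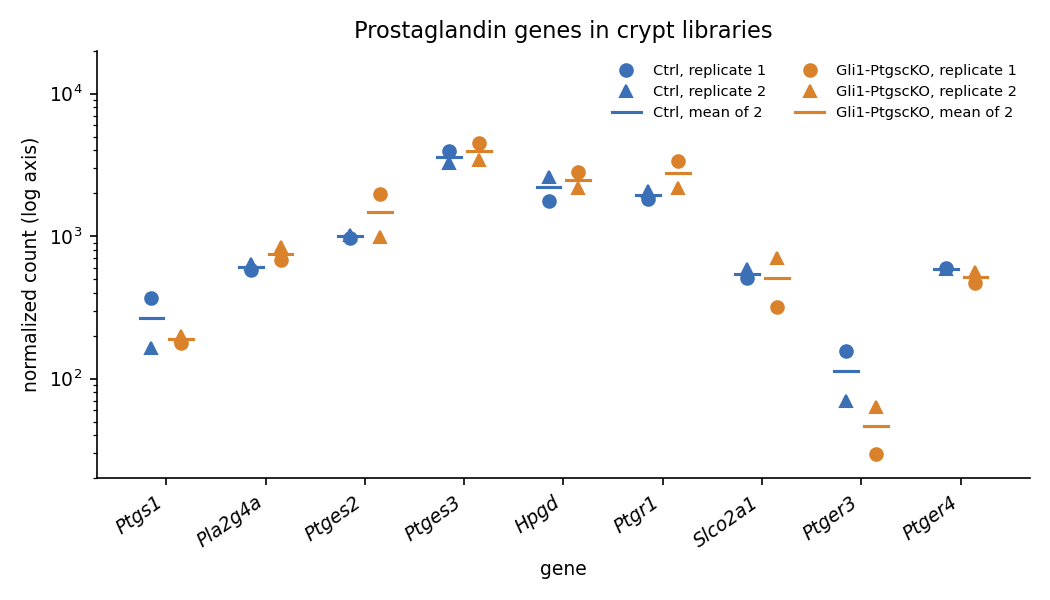
Normalized counts (log axis) of the 9 listed members in each crypt library, with circles for replicate 1, triangles for replicate 2 and bars for the mean of 2. The Ctrl and Gli1-PtgscKO symbols overlap for 5 genes, both orange symbols lie above both blue ones for Pla2g4a and Ptgr1, and both lie below for Ptger3 and Ptger4.

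Among the synthesis genes, Ptgs1 is the member that the knockout targets. The deletion is in Gli1+ mesenchymal cells, so Ptgs1 in whole crypt preparations cannot check the labels. By immunoblot, the study reports that COX1 and COX2 were almost wholly lost from mesenchymal cells. Ptgs1 had 365.5 and 163.8 normalized counts in Ctrl crypts and 178.4 and 198.9 in Gli1-PtgscKO crypts. Ctrl replicate 1 was high, and the other 3 libraries lay close together, so the groups overlapped. The log2 fold change was -0.38 (SE 0.45, 95% interval -1.45 to 0.70, limma-trend unadjusted p = 0.434), and without Ctrl replicate 1 it was 0.20. The deposited values therefore did not separate the genotypes by Ptgs1, and Ptgs2, the other targeted gene, was in neither table. The counts are for the whole gene and not for its floxed exons alone. In these bulk libraries, fewer cells of a type cannot be told apart from less RNA per cell. The summed mesenchymal markers were 16985 and 9117 normalized counts in Ctrl and 10625 and 14767 in Gli1-PtgscKO crypts, also highest in Ctrl replicate 1. The summed immune markers were highest there too (13125 and 4623 in Ctrl, 8902 and 6133 in Gli1-PtgscKO). So were the summed endothelial markers (355 and 227 in Ctrl, 297 and 211 in Gli1-PtgscKO, with 2 of 6 listed). Cd74 made up most of the immune sum in Ctrl replicate 1 (10229), and Igkc and Jchain were also highest there. Ptprc, Cd3e, Cd8a, Cd79a, Lyz2, Fcer1g and Mcpt1 were higher in another library. Esam was highest in Ctrl replicate 1, while Lyve1 was lowest there. Among the mesenchymal markers, Col1a2, Col3a1 and Pdgfra were highest in Gli1-PtgscKO replicate 2. The part of these markers in the Ptgs1 values was not tested.

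Pla2g4a supplies the substrate of both cyclooxygenases. It had 574.4 and 632.8 normalized counts in Ctrl and 676.7 and 833.6 in Gli1-PtgscKO crypts. Both Gli1-PtgscKO libraries lay above both Ctrl libraries, with a log2 difference of 0.32 (SE 0.26, 95% interval -0.31 to 0.95, limma-trend unadjusted p = 0.271). Ptgr1 was the other member with this order, and 9.73% of all crypt genes had it.

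Of the PGE synthases, Ptges2, a membrane-associated synthase gene, had 966.1 and 1024 normalized counts in Ctrl and 1976 and 990.1 in Gli1-PtgscKO crypts. Only Gli1-PtgscKO replicate 1, the library that stood apart by transcript length, was high. The log2 fold change was 0.49 (SE 0.36, 95% interval -0.36 to 1.35, limma-trend unadjusted p = 0.214). It was -0.01 without that library. Without Gli1-PtgscKO replicate 2, when replicate 1 alone stood for the knockout, it was 0.99 with a limma-trend adjusted p of 0.0116. Ptges3, the cytosolic synthase that is also the Hsp90 co-chaperone p23, had 3939 and 3247 normalized counts in Ctrl against 4477 and 3402. These overlapped at a log2 fold change of 0.13 (SE 0.27), which was -0.02 after length correction. Reads of Ptges3 may be shared with the annotated copy Ptges3-ps, so its level is uncertain.

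Slco2a1, the prostaglandin carrier, had 506.0 and 586.0 normalized counts in Ctrl crypts. Gli1-PtgscKO crypts had 320.0 and 701.8, the lowest and the highest of the 4. The knockout libraries thus differed from each other by more than the groups did, and the log2 fold change of -0.20 (SE 0.41) was 0.01 after length correction. Slco2a1 has the longest transcript of the members, at 7122 bases.

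Breakdown was represented by Hpgd and Ptgr1. Hpgd had 1777 and 2617 normalized counts in Ctrl and 2803 and 2188 in Gli1-PtgscKO crypts. The groups overlapped, with a log2 fold change of 0.20 (SE 0.29) that was -0.000924 after length correction. Ptgr1 had 1817 and 2090 in Ctrl and 3382 and 2166 in Gli1-PtgscKO. Both Gli1-PtgscKO libraries were above both Ctrl libraries, but replicate 2 only slightly, and the log2 difference was 0.47 (SE 0.29, 95% interval -0.22 to 1.17, limma-trend unadjusted p = 0.151). Without Gli1-PtgscKO replicate 2 it was 0.80, with a limma-trend adjusted p of 0.0203, and without replicate 1 it was 0.15. The same omission of replicate 2 left 1987 of all 11554 genes at an adjusted p under 0.05.

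The receptor gene Ptger3 showed the largest difference of the members. It had 156.5 and 69.3 normalized counts in Ctrl and 29.4 and 63.7 in Gli1-PtgscKO crypts, from 28 to 167 reads per library. Both Gli1-PtgscKO values were below both Ctrl values, although Ctrl replicate 2 and Gli1-PtgscKO replicate 2 lay close together. The log2 difference was -1.25 (SE 0.66, 95% interval -2.81 to 0.32, limma-trend unadjusted p = 0.101). Without Ctrl replicate 1 it was -0.67, and without Gli1-PtgscKO replicate 1 it was -0.70. Without Ctrl replicate 2 it was -1.83 (limma-trend unadjusted p = 0.0496, adjusted p = 1.00), and without Gli1-PtgscKO replicate 2 it was -1.79 (limma-trend unadjusted p = 0.0297, adjusted p = 0.105). The summed mesenchymal, immune and endothelial markers were also highest in Ctrl replicate 1, although several single markers were not, as given for Ptgs1. The part of these markers in the Ptger3 values was not tested.

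Ptger4, the gene of EP4, had 593.2 and 585.1 normalized counts in Ctrl and 471.1 and 559.8 in Gli1-PtgscKO crypts. The Ctrl libraries were nearly equal and both knockout libraries lay below them, as for Ptger3. The log2 difference was small at -0.20 (SE 0.27, 95% interval -0.83 to 0.44, limma-trend unadjusted p = 0.482). Of all crypt genes, 11.3% had both Gli1-PtgscKO libraries below both Ctrl libraries. Ptger4 overlaps Ttc33 on the opposite strand, and the strand setting of the counting is not given in the sources used here, so reads of the pair may be mixed.

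**Figure D2:**
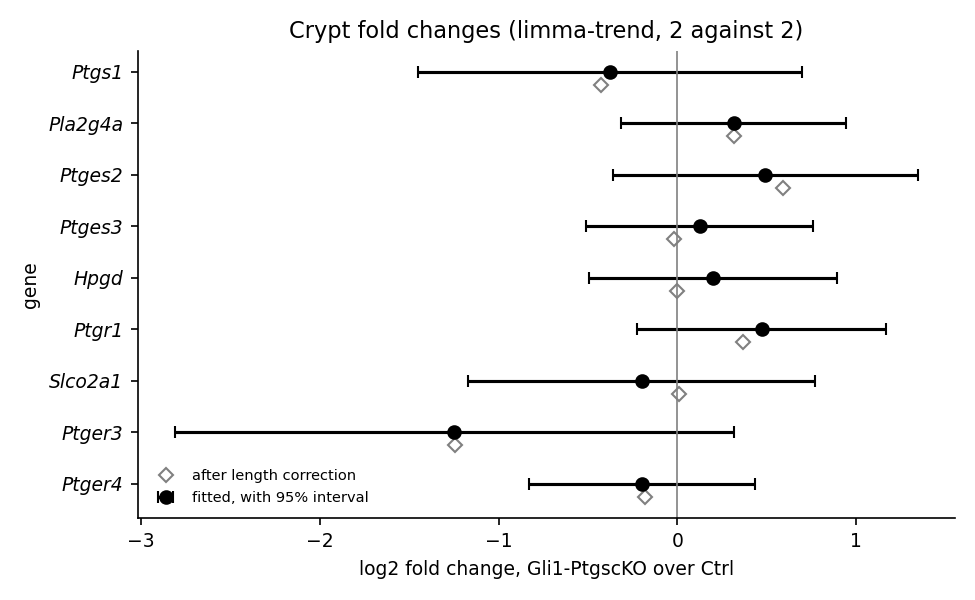
Log2 fold change of each member in crypts (Gli1-PtgscKO over Ctrl, black points, bars for the 95% interval of limma-trend), with open diamonds for the value after length correction. Every interval includes 0, and it is widest for Ptger3, from -2.81 to 0.32.

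Other genes of the same biology were taken from a list of 77 genes without the members, of which 49 were in the crypt table. Of these, 1 had an unadjusted p under 0.05 (0.632% of all crypt genes did) and none an adjusted p under 0.05, by limma-trend. In 4 both Gli1-PtgscKO libraries were above both Ctrl libraries, in 5 both were below, and 40 overlapped, where 9.73% of all crypt genes were above and 11.3% below. The list was thus near the shares of all genes. The 1 gene was Cbr3, a carbonyl reductase of the family whose member Cbr1 converts PGE2 to PGF2alpha. Cbr3 had 100.3 and 90.9 normalized counts in Ctrl and 705.0 and 176.6 in Gli1-PtgscKO crypts, with a log2 difference of 1.88 (SE 0.64, limma-trend unadjusted p = 0.0230, adjusted p = 1.00). A replicate block lowered this adjusted p (limma-trend) to 0.00928, and the block and the length correction together left it at 0.989. Its 2 knockout libraries differed more from each other than the lower of them did from Ctrl. Of the 8 receptor genes on the list, only Pparg was in the crypt table, so Ptger3 and Ptger4 were the only listed genes of cell surface prostanoid receptors there. The other 22 listed genes of EP4 to cAMP signalling had a median log2 fold change of -0.13, with 2 lower in both and none higher in both.

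The same question in villi rests on 1 Ctrl library, so no test was run, and intervals on ratios cover counting error only. Of the 9 listed members, 5 were above Ctrl in both Gli1-PtgscKO libraries (Pla2g4a, Ptges3, Hpgd, Slco2a1 and Ptger4), where 43.7% of all villus genes were. A further 3 were below in both (Ptges, Ptges2 and Ptgr1), against 44.2% of all genes, and Ptgs1 lay on either side. Differences over 2-fold in both libraries were seen for Pla2g4a above Ctrl, where 10.6% of genes were, and for Ptges and Ptges2 below it, where 6.4% were. The median log2 difference was 0.10 over the members and -0.01 over all genes. With library size alone as the scaling, the median over all villus genes moved to 0.42, so small differences here depend on the size factors.

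Pla2g4a was low in villi, with 18.5 normalized counts in Ctrl and 56.6 and 61.8 in Gli1-PtgscKO, from 16, 74 and 64 reads. Both knockout libraries were about equally far above Ctrl. The ratios were 3.05 (95% interval 1.76 to 5.62) and 3.34 (1.91 to 6.18), and the log2 differences of 1.56 and 1.69 were 1.46 and 1.59 after length correction. Stem cell markers, which belong to crypts, summed to 3084 in the Ctrl villus library. In the Gli1-PtgscKO villus libraries they summed to 5812 and 4823. Olfm4 made up the largest part, and Olfm4, Lgr5, Axin2, Slc12a2, Mki67 and Top2a were above Ctrl in both. Smoc2 was below it in both (414.7 in Ctrl, 333.4 and 251.1), and Ascl2 lay on either side. Pla2g4a was 10.1-fold higher in crypts than in villi, and the part of crypt RNA in its villus values was not tested.

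Ptges, the inducible microsomal synthase that is often paired with COX2, had 32.4 normalized counts in Ctrl villi and 7.65 and 11.6 in Gli1-PtgscKO villi. These stand for 28, 10 and 12 reads, which gave ratios of 0.236 (95% interval 0.102 to 0.49997) and 0.357 (0.166 to 0.726). Ptges2 was far better covered, at 2096 normalized counts in Ctrl and 760.7 and 694.5 in Gli1-PtgscKO. Both PGE synthase genes were lower in each knockout library, and Ptges2 had ratios of 0.363 (0.336 to 0.392) and 0.331 (0.304 to 0.362). The log2 differences of Ptges2, -1.46 and -1.59, were -1.88 and -1.98 after length correction. That correction used its longest annotated transcript, of 4978 bases, which need not be the one expressed. Genes within 20% of 4978 bases had a median villus log2 difference of 0.33, and those within 20% of 2000 bases had -0.40. The corrected values of Ptges2 thus depend on the length used. The third synthase gene, Ptges3, differed little, with 697.3 in Ctrl and 747.7 and 744.7 in Gli1-PtgscKO. The summed immune markers were 25284 normalized counts in the Ctrl villus library and 7569 and 8040 in the Gli1-PtgscKO villus libraries, highest in Ctrl like Ptges and Ptges2. Of the 11 immune markers 8 were below Ctrl in both knockout libraries, led by Cd74 (12383 in Ctrl, 2843 and 1952) and Igkc (5063, 537 and 935). Cd3e and Cd8a lay on either side of Ctrl, and Ptprc was above it (200.4 in Ctrl, 607.8 and 722.5). The sum of enterocyte markers was also highest in Ctrl, at 575026 against 445948 and 395222. That of the epithelial markers was too, at 105192 against 67938 and 71530. Krt8 made up most of the epithelial sum in Ctrl (69748, against 28165 and 31449), and Krt18 was also below Ctrl in both knockout libraries. Epcam (9196 in Ctrl, 14360 and 12384) and Cdh1 (3834, 5292 and 4640) were above it, and Krt20 lay on either side. Of the enterocyte markers, Sis was above Ctrl in both (17266, 47879 and 24653), and Alpi, Slc5a1 and Ace lay on either side. The part of these markers in the PGE synthase values was not tested.

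Ptgs1 had 90.4 normalized counts in Ctrl villi and 50.5 and 92.7 in Gli1-PtgscKO villi, so 1 knockout library was below Ctrl and 1 level with it. As in crypts, its RNA did not follow the genotype. The mesenchymal markers summed to 1902 in Ctrl and to 2142 and 1843 in Gli1-PtgscKO villi.

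Hpgd had 4037 normalized counts in Ctrl villi and 5461 and 5697 in Gli1-PtgscKO villi, log2 differences of 0.44 and 0.50. After length correction both were 0.88. Genes within 20% of the length of its transcript (1683 bases) had a median villus log2 difference of -0.51, so Hpgd lay further from genes of its own length than from all genes. Ptgr1 had 2762 in Ctrl and 2545 and 2555 in Gli1-PtgscKO. Its log2 differences of -0.12 and -0.11 turned to 0.12 and 0.08 after length correction, and averaged 0.32 with scaling by library size alone.

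Slco2a1 had 530.5 normalized counts in Ctrl villi and 665.9 and 606.6 in Gli1-PtgscKO. Genes within 20% of its length had a median log2 difference of 0.66, and its own differences of 0.33 and 0.19 turned to -0.43 and -0.51 after length correction. Ptger4 had 132.1 in Ctrl and 179.7 and 207.7 in Gli1-PtgscKO, from 114 to 235 reads. Both were above Ctrl, by 0.44 and 0.65 on the log2 scale, and by 0.28 and 0.49 after length correction.

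**Figure D3:**
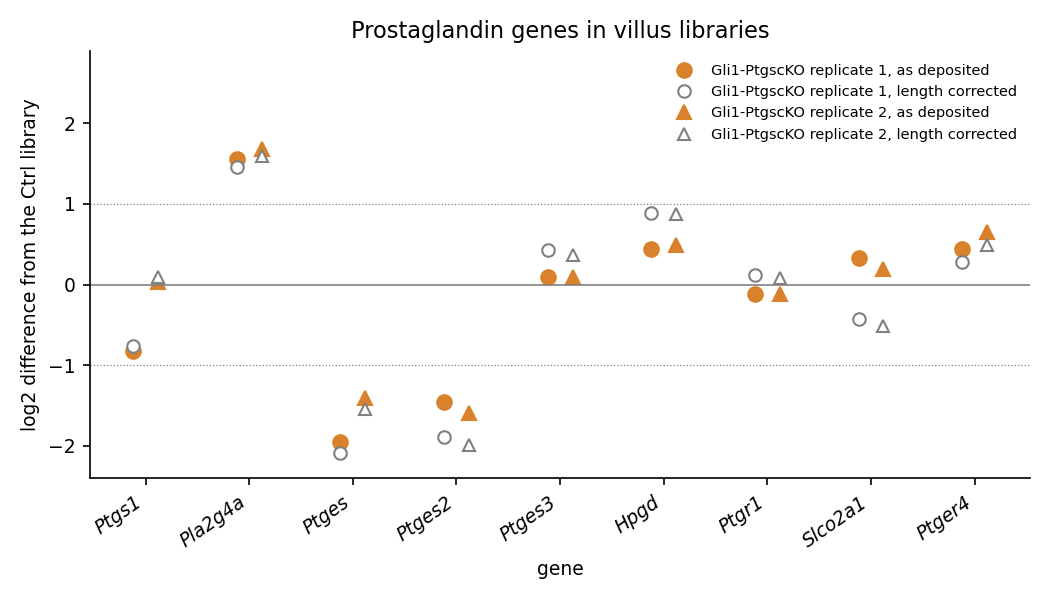
Log2 difference of each Gli1-PtgscKO villus library from the 1 Ctrl villus library for the 9 listed members (filled, as deposited; open, length corrected; circles replicate 1, triangles replicate 2; dotted lines at a 2-fold difference). Pla2g4a lies above the upper dotted line, Ptges and Ptges2 lie below the lower one, and the open symbols of Slco2a1 and Ptgr1 fall on the other side of 0 from the filled ones.

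Of the list of 77 genes, 58 were in the villus table, 25 of them above Ctrl in both Gli1-PtgscKO libraries, 26 below in both and 7 on either side. Among all villus genes 43.7% were above and 44.2% below, so the list as a whole was near these shares. The list's synthesis genes had 3 of 16 above and 10 below. Its 4 transport genes were all above, with a median log2 difference of 0.48, or 0.24 after length correction. After that correction Abcc1 was below Ctrl in both (-0.09 and -0.24) and Slco3a1 lay on either side (-0.005 and 0.22). The rest of the 4 stayed above in both. Among the 24 genes of EP4 to cAMP signalling, 14 were above and 8 below, with a median of 0.38 that was -0.04 after length correction.

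Within that group, Cftr, the chloride channel opened by cAMP and protein kinase A, had 339.4 normalized counts in Ctrl villi and 1055 and 843.2 in Gli1-PtgscKO villi. Its log2 differences of 1.63 and 1.31 were 0.97 and 0.69 after length correction. Cftr was also 5.04-fold higher in crypts and Rapgef3 6.86-fold. The summed stem cell markers were higher in the same Gli1-PtgscKO villus libraries, as given with the exceptions for Pla2g4a. Their part in these values was not tested. Rapgef3, the cAMP sensor Epac1, had 4, 23 and 14 reads, and Cysltr2, a cysteinyl leukotriene receptor gene, had 2, 27 and 21 reads, so both were barely detected in Ctrl. Below Ctrl in both were Alox5ap, Prxl2b and Pla2g5. Alox5ap, the 5-lipoxygenase activating protein, had log2 differences of -1.37 and -1.87 (-0.77 and -1.35 after length correction). Prxl2b, a prostamide and PGF synthase, had -1.21 and -0.88 (-0.45 and -0.23 after it). Pla2g5, a secreted phospholipase, had -1.61 and -0.22 (-1.37 and -0.02 after it).

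The last comparison asked where along the axis from crypt to villus each member was found. Levels were set on CPM, each gene's reads scaled to a common total over the 11227 shared genes, over 4 crypt and 3 villus libraries. The tables were normalized separately and no test was run. Among all shared genes the median log2 difference (villus minus crypt) was -0.76 on this scale, and 52.3% of genes were lower in every villus library than in every crypt library, while 11.1% were higher. A member below in villi is therefore not unusual. Under TMM scaling over the shared genes the median was -0.06, and member differences are also given relative to the CPM median.

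Pla2g4a had the largest difference, at 31.4 to 44.4 CPM in crypts and 1.10 to 4.77 CPM in villi. The crypt mean was 10.1-fold the villus mean, and the log2 difference was -3.14, which is -2.38 relative to the median of all genes. Ptges3 was also lower in every villus library, with 171.0 to 218.7 CPM in crypts and 41.4 to 62.3 in villi (-1.86, or -1.11 relative to the median). Both kept this order of libraries under TMM scaling and after length correction.

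Ptgs1 (8.63 to 19.9 CPM in crypts and 4.21 to 7.15 in villi) and Ptger4 (23.0 to 32.4 and 7.84 to 16.0) were lower in villi on the CPM scale as well. Relative to the median of all genes their log2 differences were only -0.17 and -0.39, and under TMM scaling and after length correction the libraries of the tissues overlapped. For Ptger4 the difference relative to the median was -0.82 in Ctrl libraries only and -0.16 in Gli1-PtgscKO libraries only, and for Ptgs1 it was -0.09 and -0.14.

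Hpgd went the other way, at 97.0 to 137.8 CPM in crypts and 239.7 to 455.1 in villi, where the Ctrl library was the lowest of the 3. The villus mean was 3.10-fold the crypt mean, with a log2 difference of 1.58, or 2.34 relative to the median, and every villus library remained above every crypt library under all 4 alternatives. Ptgr1 had 99.2 to 165.2 CPM in crypts and 164.0 to 212.1 in villi, overlapping by a narrow margin. Slco2a1 had 15.6 to 37.3 and 31.5 to 55.5. These 2 genes, which like Hpgd serve uptake and breakdown, overlapped on the CPM scale but were higher in every villus library under TMM scaling (26.6% of all genes), after length correction (29.8%), and within each genotype (21.4% in Ctrl and 16% in Gli1-PtgscKO). Ptges2 had 52.7 to 96.5 CPM in crypts and 53.6 to 124.4 in villi, with the highest villus value in Ctrl. In Ctrl libraries only, its villus value lay above both crypt values, with a log2 difference of 1.21. In Gli1-PtgscKO libraries only, the tissues overlapped at -0.29. This difference between genotypes was not tested.

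**Figure D4:**
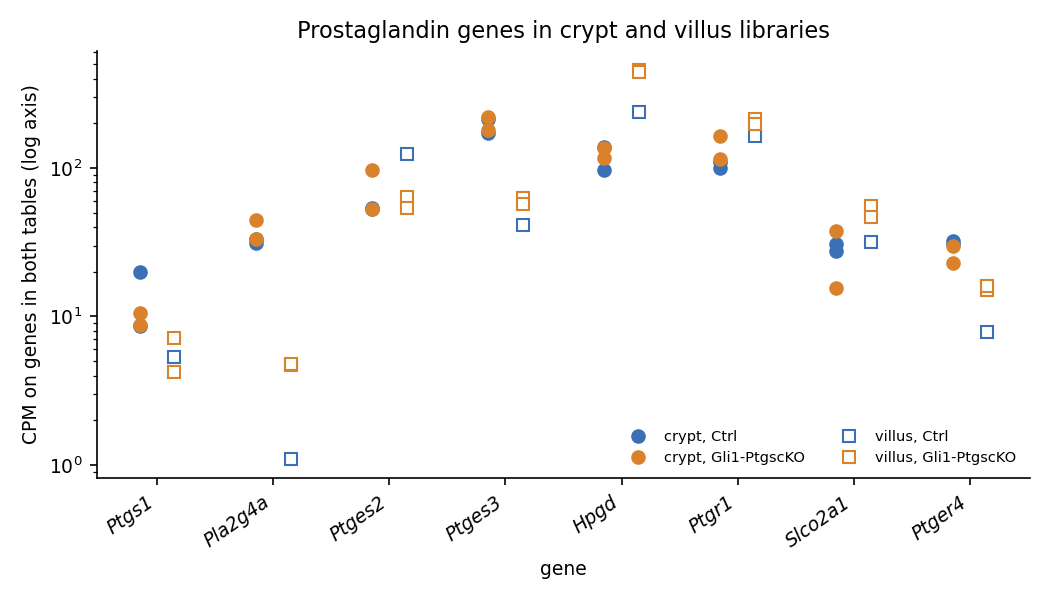
Level of the 8 members listed in both tables, in CPM on shared genes (log axis), in each crypt library (filled circles) and villus library (open squares), blue for Ctrl and orange for Gli1-PtgscKO. Squares lie below all circles for Ptgs1, Pla2g4a, Ptges3 and Ptger4 and above them for Hpgd.

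Per kilobase of the longest annotated transcript, members can be set in order within each tissue. CPM was here scaled to the reads on all listed genes of each table, not on the shared genes alone. The longest transcript need not be the one expressed, so the order depends on this choice of length. In crypts Ptges3 was highest at 98.0 ± 11.96 CPM per kb (SD, n = 4), followed by Hpgd at 72.4 ± 11.5 and Ptgr1 at 53.2 ± 12.7. The libraries of Hpgd and Ptgr1 overlapped, while those of Ptges3 lay above Hpgd. Ptges2 (12.8 ± 4.35) and Pla2g4a (10.3 ± 1.72) overlapped, then came Ptger4 at 7.68 ± 1.09, which overlapped with Ptgs1 at 4.17 ± 1.88. Slco2a1 (3.91 ± 1.28) and Ptger3 (1.19 ± 0.844) ended the order and each overlapped with its neighbour. EP4 was thus the better represented receptor gene in crypts, with every Ptger4 library above every Ptger3 library.

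In villi Hpgd led at 224 ± 71.0 CPM per kb (SD, n = 3) and Ptgr1 followed at 82.9 ± 10.7. The breakdown genes thus stood above the synthesis genes Ptges3 (26.8 ± 5.44) and Ptges2 (16.1 ± 7.69), which overlapped with each other. Slco2a1 had 6.24 ± 1.70, Ptger4 3.42 ± 1.17, Ptgs1 1.94 ± 0.515, Pla2g4a 1.02 ± 0.606 and Ptges 0.315 ± 0.186. From Slco2a1 to Ptgs1 the libraries of neighbours did not overlap except for Ptger4 and Ptgs1, and those of Ptgs1 lay above Pla2g4a.

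On the list of 77 genes, 47 were in both tables, with 8 higher in every villus library, 23 lower and 16 overlapping, where 11.1% of all shared genes were higher and 52.3% lower. Ephx2, the soluble epoxide hydrolase, was 6.09-fold higher in villi, Prxl2b 4.19-fold and Cbr1 3.52-fold. Slco3a1, a prostaglandin carrier gene, was 7.47-fold higher in crypts, Cftr 5.04-fold and Abcc1, an efflux pump, 4.98-fold. The 4 transport genes on the list were lower in every villus library, an order that 52.3% of all shared genes had, while the libraries of Slco2a1 overlapped.

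In GRCm38, Pla2g4a lies at chr1:149829618-149961290, and 3 members share chromosome 2, with Ptges at 30889471-30929863, Ptges2 at 32395896-32405772 and Ptgs1 at 36230426-36252272. Ptger3 is at chr3:157566892-157645888, Ptgr1 at chr4:58965439-58987119 and Hpgd at chr8:56294585-56321043. Slco2a1 is at chr9:102988712-103096002, Ptges3 at chr10:128058954-128077272 and Ptger4 at chr15:5206661-5244187. The counts are for whole genes, so the values do not tell exons, introns or UTRs apart.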

How the data were processed

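Paired-end reads were aligned by the authors to mm10 with STAR and compared with DESeq2. The signal in the deposited tables is a gene's count over its library's size factor, here called normalized count. The counting program, strand setting and annotation are not given in the sources used here. The labels and the methods name different RNA and library kits. The tables also hold the authors' fold changes, p-values and adjusted p-values, which were not used. The steps between values gave back whole reads (100% whole within 0.01 reads).

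The planned test for counts was edgeR. As planned for normalized values, which these are, limma-trend took its place (R 4.3.3, limma 3.58.1), on log2(value + 1) where the mean was at least 1, without a block, two-sided. It was fitted on all 11554 crypt genes and adjusted by Benjamini-Hochberg. The study describes 2 biological replicates. Villus ratios carry exact conditional binomial 95% intervals on recovered reads. Levels across tables are CPM on shared genes. Values per kb use CPM on all listed genes of each table and the longest GENCODE M21 transcript.

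Alternatives were a replicate block, edgeR 4.0.16 and DESeq2 1.42.0 on recovered reads, library size alone, a pseudocount of 0.1, no filter, at least 10 reads in every library, a length correction (lowess span 0.3, 11546 genes with a length in crypts and 12692 in villi), TMM scaling between tissues, and leaving out each library. The fits were also run on simulated counts without a transcript length trend. That run does not cover the length trend seen in these libraries. The members, the gene lists, the marker lists and the rule for named genes were chosen with earlier results of these data known. Named beside the members are genes of the list of 77 at an unadjusted p under 0.05 in crypts, and the 3 with the largest difference in each direction in villi and between tissues. Upstream sequences are from RefSeq (GRCm38.p6), where all 10 members matched by symbol. Of 2 starts given for Pla2g4a, the outermost was used. Figures were drawn with matplotlib 3.10.9.

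Of 9 marker lists, the tuft cell, endothelium, epithelium, goblet cell and Paneth cell sums were not given beside the members for at least 1 tissue. Summed normalized counts were 1073 to 2030 in crypts and 1154 to 2052 in villi for tuft cell. In the same order they were 211 to 355 and 73.4 to 112 for endothelium, and 96852 to 148458 and 67938 to 105192 for epithelium. For goblet cell they were 90372 to 109815 and 60879 to 102895, and for Paneth cell 302201 to 483350 and 3596 to 6009.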

Additional observations from a re-analysis of the deposited data

Results flagged for a closer look

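The crypt and villus tables shared 8 members and 47 other genes of the pathway list. In 2 of these members and 6 of these other genes, Gli1-PtgscKO differed from Ctrl in opposite directions in crypts and villi. Both Gli1-PtgscKO libraries of a table went together. Of all genes, 9.73% were above and 11.3% below Ctrl in this way in crypts, and 43.7% and 44.2% in villi. How many of all genes had opposite directions was not counted. None of the 8 differences between the tissues was tested, because villi have 1 Ctrl library. Ptgr1 had a log2 difference of 0.47 in crypts and -0.115 in villi, and the villus value changed sign after length correction. Ptger4 had -0.20 in crypts and 0.5452 in villi. Cbr3 had 1.88 in crypts and -0.2398 in villi, where length correction gave 0.25 and 0.45 for its 2 libraries. Cftr had -0.35 in crypts and 1.472 in villi. Plaa (a phospholipase A2 activating protein) had -0.14 and 0.6016, Slco4a1 (an organic anion transporter) -0.52 and 0.3823, and Pde3b (a cAMP phosphodiesterase) -0.42 and 1.43, and these 3 are named for this order after their values were seen. Cbr1, a carbonyl reductase that acts on PGE2, had 0.47 in crypts and -0.3577 in villi, where length correction gave -0.11 and -0.09 for its 2 libraries. With 3 of the 8, Ptgr1, Cbr3 and Cbr1, the crypt libraries were higher in Gli1-PtgscKO. Their highest value was that of replicate 1, the library that stood apart by transcript length. With Ptger4, Plaa, Pde3b and Cftr, which were lower in Gli1-PtgscKO crypts, the lowest value was also that of replicate 1. Slco4a1 was lowest in Gli1-PtgscKO replicate 2. After length correction Cftr had -0.17 in crypts and 0.97 and 0.69 in villi. Pde3b had -0.23 in crypts and 0.66 and 0.87 in villi. Ptger4, Plaa and Slco4a1 also kept their signs after it.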

How the results depend on the processing

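The log2 fold changes of the 9 crypt members kept their direction and side of the threshold in 112 recalculations, turned in 12 and passed an adjusted p under 0.05 in 2. The 2 were Ptges2 (0.9897, adjusted p 0.0116) and Ptgr1 (0.7952, adjusted p 0.0203), both by limma-trend without Gli1-PtgscKO replicate 2. Those that turned were Ptgs1 without Ctrl replicate 1 (0.2001), Ptges2 without Gli1-PtgscKO replicate 1 (-0.00628), Ptges3 after length correction (-0.02009, also with the block), without Ctrl replicate 2 (-0.01365) and without Gli1-PtgscKO replicate 1 (-0.07232), Hpgd after length correction (-0.000924, also with the block) and without Ctrl replicate 1 (-0.07941), and Slco2a1 after length correction (0.01175, also with the block) and without Gli1-PtgscKO replicate 1 (0.3653). With 1 library left out in turn, the values ran from -0.9525 to 0.2001 for Ptgs1, -0.00628 to 0.9897 for Ptges2, -0.07232 to 0.3238 for Ptges3, -0.07941 to 0.479 for Hpgd, -0.7652 to 0.3653 for Slco2a1 and -1.83 to -0.67 for Ptger3. In villi, Ptgr1 turned with library size alone (0.3174) and after length correction (0.1), and Slco2a1 after length correction (-0.4719). Ptgs1, whose libraries lay on either side of Ctrl, had a mean villus difference of -0.3955. That mean was 0.03121 with library size alone and 0.03693 without Gli1-PtgscKO replicate 1.

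No member had an unadjusted p under 0.05 except with libraries left out, where 0 to 4 did: Ptges2, Ptgr1, Slco2a1 and Ptger3 without Gli1-PtgscKO replicate 2, and Ptger3 without Ctrl replicate 2. Whether replicate numbers pair libraries is not stated, and with 2 pairs the deviations of same-numbered libraries correlated at 0.247. With the replicate block, 63 genes were past the study's threshold as higher (20 without it), 15 as lower (1) and 34 at an adjusted p under 0.05 (0). No member was among the last, while Cbr3 reached a limma-trend adjusted p of 0.00928. With the block and the length correction together, 0 genes were at an adjusted p under 0.05 by limma-trend (301 at an unadjusted p under 0.05), and Cbr3 had 0.989. With edgeR and the block these counts were 62, 11 and 26, and with DESeq2 60, 5 and 11. Lower genes numbered 3 by edgeR, 4 with library size alone, 4 after length correction and 5 after length correction with the block. Leaving out 1 library in turn gave 15 to 593 higher, 3 to 288 lower and 0 to 1987 at an adjusted p under 0.05, the highest each time without Gli1-PtgscKO replicate 2. The causes were not tested.

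Between tissues, members higher in every villus library numbered 1 on the CPM scale, 3 with TMM scaling, 3 after length correction, 4 in Ctrl libraries only and 3 in Gli1-PtgscKO libraries only. The shares of all genes were 11.1%, 26.6%, 29.8%, 21.4% and 16%. Members lower in every villus library numbered 4 (52.3% of all genes), and 2 with TMM scaling (29.1%) or length correction (30.9%). Depth limits Ptges and Pla2g4a in villi (10 to 74 reads) and Ptger3 in crypts (28 to 167 reads).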
